A study of Mus musculus with 36 samples.

Results

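The hypothalamus of NZO/HlLtJ males was compared between 2 diets across all genes of the deposited table. The 6 libraries were chosen by the strain and the male suffix in their titles, out of 36 in the series. NZO/HlLtJ is an inbred New Zealand Obese line, a polygenic model of obesity whose males are prone to diabetes. The control group (n = 3) received a diet labelled as 10% fat with fiber, and the high-fat, high-sugar (HFHS) group (n = 3) one labelled as 44% fat with fiber. Both groups were wild type in genotype label, with no other treatment, and the diets began at 6 weeks of age with tissue taken at 15 weeks. The series holds the same diet pair in NZO/HlLtJ females and in both sexes of C57BL/6J, the common reference strain, and CAST/EiJ, a wild-derived strain, with n = 3 in each of 12 groups. The libraries are of whole hypothalamus, so a change in the number of cells of a type and a change in RNA per cell cannot be told apart. Nothing in the labels says that libraries of a group came from separate animals, so p-values measure the spread between these samples, which may be technical.

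The male libraries held 26.4 to 39.6 M counts. Mitochondrial transcripts took 4.35% to 5.005% of counts in control males and 4.09% to 4.39% in HFHS males. Ddx3y, a Y-linked gene, lay at 80.4–92.4 CPM (counts scaled to library size) in all 6, as their sex label requires. All 16 hypothalamic markers were measured, among them Nkx2-1 at 25.0–35.7 CPM, Pmch at 312–443 CPM and Otp at 43.0–53.7 CPM. A library of each diet stood apart. Control male 1 was far from the other 5 on the leading axis of a principal component analysis, at -36.8 where the others lay between -0.60 and 15.5, and its markers of vessel walls and fibroblasts were low. HFHS male 3 was high in markers of the thalamus, which adjoins the hypothalamus.

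The heat shock response keeps proteins folded when cells are stressed. Its master regulator, the transcription factor HSF1, binds repeated heat shock elements in promoters and raises the Hsp70, Hsp90, Hsp40 and small heat shock proteins together. In the hypothalamus, neurons that sense leptin, insulin and nutrients set feeding and energy use, and chaperones, endoplasmic reticulum stress genes and glial inflammatory genes are often followed there in studies of dietary obesity.

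With edgeR's quasi-likelihood test and Benjamini-Hochberg adjustment, 3 of 20053 genes passed at an adjusted p under 0.05, which is 0.015% of the genes tested. Of these, 2 were lower on HFHS (0.00997%) and 1 was higher (0.00499%). The lower pair is Hspa1b and Hspa1a, the stress-inducible Hsp70 chaperones. The higher one is Zfhx2os, an antisense transcript. At an unadjusted p under 0.05 there were 732 higher genes (3.65%) and 943 lower genes (4.7%), 1675 in all (8.35%), and the median change over all genes was 0.0036 on the log2 scale. When only the 12 NZO/HlLtJ libraries were fitted, 12 of 18872 genes passed, and when only the 6 males were, 63 of 18257 did, with 14 higher and 49 lower. These fits also changed the genes tested and the scaling. It was 5 without control male 3, 1 without HFHS male 1, and 0 without control male 1, control male 2, HFHS male 2 or HFHS male 3, where 1058, 1266, 946 and 1770 genes had an unadjusted p under 0.05.

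The promoters of 4 chaperone genes are shown because Hspa1b, Hspa1a and Hsph1, the members of lowest p, and Hspd1 carry the letters to which HSF1 is known to bind. Dnajb1, which stands between Hsph1 and Hspd1 by p, had no such match in its windows and is not shown. The letters searched were the heat shock element core, GAANNTTC or TTCNNGAA, each its own reverse complement, in the 250 bases before each start site. Sequences and starts are from RefSeq (GRCm38.p6). The capitals mark the core.
Hspa1b (chr17:34959239-34959488, minus strand): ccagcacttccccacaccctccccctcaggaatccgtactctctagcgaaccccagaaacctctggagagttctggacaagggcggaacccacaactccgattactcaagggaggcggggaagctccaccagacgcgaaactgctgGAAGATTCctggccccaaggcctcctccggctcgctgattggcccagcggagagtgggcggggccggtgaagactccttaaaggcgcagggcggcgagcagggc
Hspa1a (chr17:34972157-34972406, minus strand): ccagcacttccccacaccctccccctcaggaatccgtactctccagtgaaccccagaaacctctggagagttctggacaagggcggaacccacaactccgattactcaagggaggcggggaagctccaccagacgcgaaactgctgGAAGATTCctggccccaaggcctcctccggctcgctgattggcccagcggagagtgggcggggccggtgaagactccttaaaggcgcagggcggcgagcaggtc
Hsph1 (chr5:149636337-149636586, minus strand): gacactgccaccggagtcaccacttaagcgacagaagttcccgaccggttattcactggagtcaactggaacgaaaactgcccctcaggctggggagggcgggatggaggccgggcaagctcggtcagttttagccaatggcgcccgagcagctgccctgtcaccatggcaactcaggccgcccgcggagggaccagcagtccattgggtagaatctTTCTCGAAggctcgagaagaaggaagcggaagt
Hspd1 (chr1:55087933-55088182, minus strand): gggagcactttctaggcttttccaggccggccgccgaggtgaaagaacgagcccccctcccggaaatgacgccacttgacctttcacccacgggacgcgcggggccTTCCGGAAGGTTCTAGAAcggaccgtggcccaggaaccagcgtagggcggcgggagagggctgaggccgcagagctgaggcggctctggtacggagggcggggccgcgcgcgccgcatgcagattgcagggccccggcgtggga

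The core starts 104 bases before the start site in both Hspa1b and Hspa1a, whose 250 bases are alike at 247 positions. Of the 21 heat shock genes listed, 17 were matched by symbol to RefSeq promoters, and 9 of the 17 held a core: Hspa1a, Hspa1b, Hsph1, Hspb1, Hspd1, Hspe1, Fkbp4, Dnaja1 and Dnajb4. Over 32851 promoter windows of the same length, 12.8% held one. A listed gene counted if any of its windows held a core, while the 12.8% is a share of windows. The shares are therefore not in the same unit. Hspd1 and Hspe1 are transcribed away from each other from shared sequence, in which 3 overlapping cores form the longer element GAANNTTCNNGAA or its reverse complement TTCNNGAANNTTC, found in 0.466% of windows. Of 16 genes outside the list that are named below for their p-value, Serpina3n and Zfhx2os included, 12 were matched and none of these held a core. A match is a description of letters in this window and says nothing of binding in these animals.

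Hspa1b (chr17:34956436-34959238) fell the most among the named genes. Its levels were 42.1, 52.6 and 15.8 CPM in the control males and 4.45, 5.54 and 4.15 CPM in the HFHS males. All HFHS libraries lay under all controls, and control male 3 lay between the other controls and the HFHS group. The change was -2.96 ± 0.54 (SE, log2; adjusted p = 0.0408), which left 12.8% of the control level. Hspa1a (chr17:34969190-34972156) stood at 57.7, 73.7 and 27.4 CPM in control males and at 15.2, 15.9 and 12.8 CPM in HFHS males. It fell by 1.86 ± 0.34 on the log2 scale, to 27.6% of control (adjusted p = 0.0408). The 2 genes are close copies, and no source used here states how reads were divided between them. Their summed level avoids that division: it was 99.8, 126 and 43.2 CPM in control males against 19.6, 21.4 and 16.9 CPM in HFHS males, with no overlap. Each gene passed in 9 of 17 alternative analyses, with adjusted p-values between 0.00059 and 0.562 for Hspa1b and between 0.0021 and 0.562 for Hspa1a. Left-out libraries moved Hspa1b between -2.59 and -3.33 log2 without a change of direction.

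**Figure D1:**
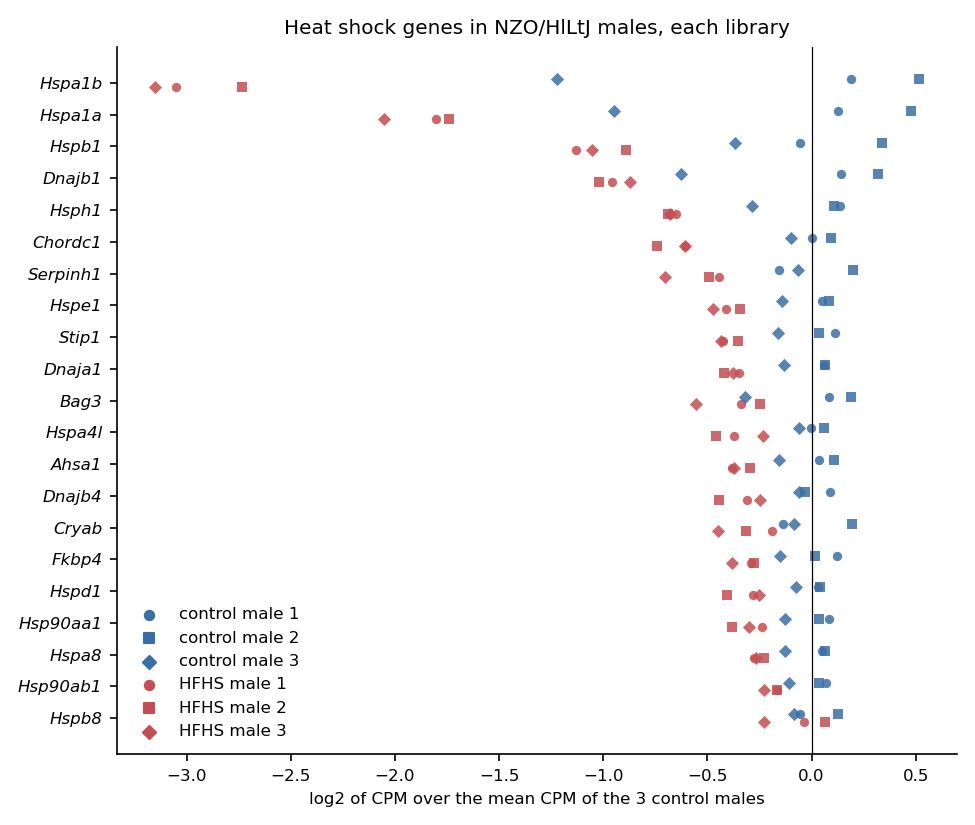
Each point is 1 library of NZO/HlLtJ males, blue for the control and red for the HFHS diet. The x axis is log2 of its CPM over the mean of the 3 control males, for the 21 heat shock genes. Control male 3 (blue diamonds) is the lowest control for 19 of the 21 genes, and lies above all HFHS libraries for 19.

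The rest of the heat shock list did not pass over all genes, and nearly all of it lay on the same side. All 21 members were tested, 2 were called, 17 had an unadjusted p under 0.05 with the lower level on HFHS (4.7% of all genes did), and 19 had all 3 HFHS males under all 3 controls (11.2% of all genes). No member was higher by either count. The median change was -0.37 log2, beside 0.0036 for all genes. The list was chosen with earlier results of these data known, so its direction is not independent evidence. The count at an unadjusted p under 0.05 was 15 to 19 when any of the 6 males was left out.

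Among partners of Hsp70, Hsph1 encodes Hsp110, a nucleotide exchange factor. It lay at 514, 503 and 383 CPM in control males and within 289–297 CPM in the HFHS males, a difference of -0.67 ± 0.14 log2 (adjusted p = 0.173). Hsph1 passed in 4 of 17 alternatives, DESeq2 included. Dnajb1, an Hsp40 that delivers clients to Hsp70, lay at 118, 134 and 69.5 CPM against 52.9–58.6 CPM, a difference of -0.95 ± 0.21 (adjusted p = 0.307). Its HFHS libraries were again close to each other while the controls spread widely. The related co-chaperones Dnajb4 (-0.33 ± 0.08) and Dnaja1 (-0.38 ± 0.11) differed by less, also without overlap. Hspa4l, another Hsp110 relative, differed by -0.35 ± 0.10 and Bag3, a co-chaperone for selective autophagy, by -0.37 ± 0.20 with overlapping groups.

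Hsp90 itself showed smaller differences than Hsph1 and Dnajb1. Hsp90aa1, its inducible cytosolic form, lay at 1247–1444 CPM in control males and 1044–1153 CPM in HFHS males (-0.31 ± 0.11), and the constitutive Hsp90ab1 differed by -0.19 ± 0.10. Its co-chaperones Chordc1 (-0.65 ± 0.18), Stip1 (-0.40 ± 0.13), Ahsa1 (-0.35 ± 0.12) and Fkbp4 (-0.31 ± 0.09) had no overlap between the diets. Chordc1 was at 83.5, 88.9 and 77.9 CPM on control diet and at 54.8, 49.9 and 54.7 CPM on HFHS, and here control male 3 was close to the other controls. Hspa8, the constitutive Hsp70, differed by -0.26 ± 0.12.

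Mitochondrial and small chaperones were lower as well, none of them past the adjusted threshold. Hspd1 and Hspe1 encode the mitochondrial Hsp60 and Hsp10, which work as 1 folding chamber. Hspd1 was at 217, 219 and 202 CPM on control diet against 175, 160 and 178 CPM on HFHS (-0.31 ± 0.08, adjusted p = 0.383), and Hspe1 differed by -0.41 ± 0.13. Hspb1, which encodes the small protein Hsp27, lay at 11.9, 15.6 and 9.58 CPM against 5.66, 6.68 and 5.96 CPM (-1.02 ± 0.29). Serpinh1, the collagen chaperone Hsp47, differed by -0.54 ± 0.20. The small heat shock genes Cryab (-0.32 ± 0.22) and Hspb8 (-0.06 ± 0.17) had an unadjusted p over 0.05, and Hspb8 overlapped between diets. In the fit of the 6 males alone 10 of the 21 passed: Chordc1, Hspb1, Stip1, Hspa4l, Hspd1, Dnaja1, Hsph1, Hspe1, Hspa1b and Hspa1a.

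The list was also lower on HFHS in NZO/HlLtJ females, which share no library with the males, though 1 HFHS female held 2.58 CPM of the Y-linked Ddx3y. Hspa1b stood at 14.98–28.91 CPM in control females and 3.835–5.727 CPM in HFHS females, and its female change was -2.14 ± 0.53 log2 (adjusted p = 0.183). Of the 21 members 13 had an unadjusted p under 0.05 in females, all lower (3.24% of all genes), and 17 had no overlap (6.82%). The difference between the sexes had an unadjusted p under 0.05 for 0 of 21 members, beside 5.2% of all genes, and for Hspa1b it was -0.82 (unadjusted p = 0.273). A p over the threshold does not show that the sexes respond alike.

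**Figure D2:**
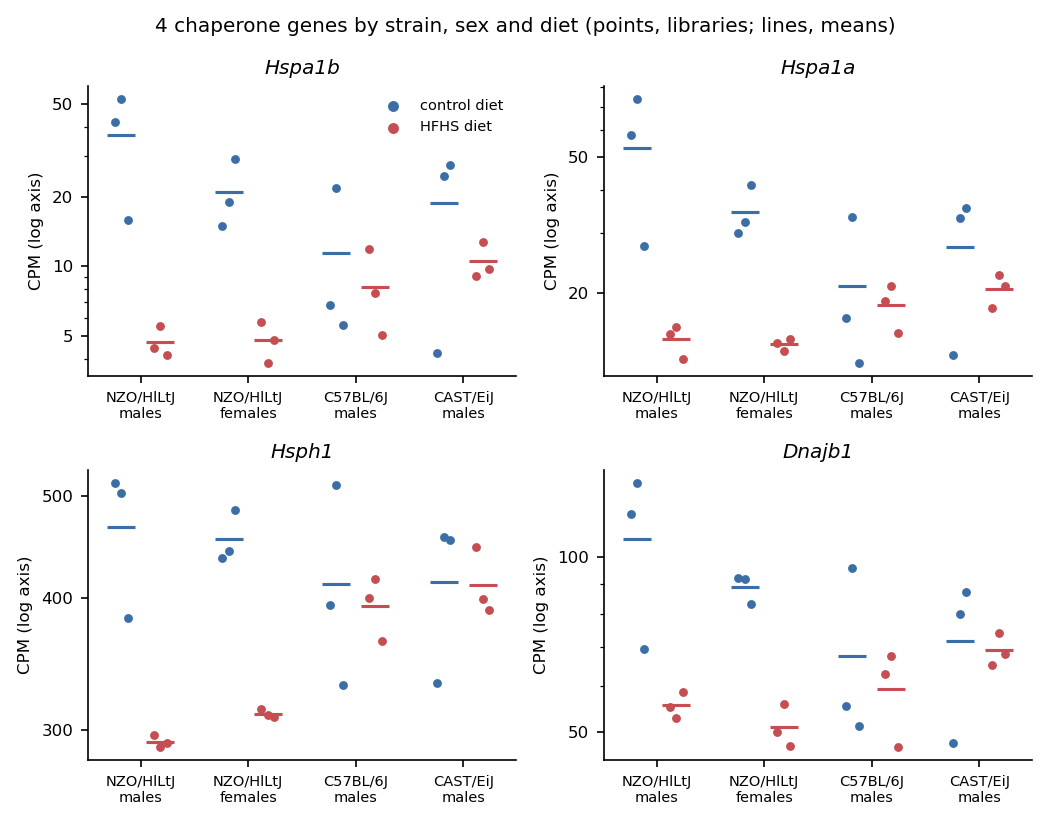
CPM on a log axis of Hspa1b, Hspa1a, Hsph1 and Dnajb1 in NZO/HlLtJ males and females and in males of the other strains. Points are libraries (n = 3) and lines are means. In both NZO/HlLtJ sexes the diets do not overlap, and in C57BL/6J and CAST/EiJ males they do for every gene shown.

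Males of the other strains were set beside these values. Hspa1b was at 5.57–21.9 CPM in control and 5.03–11.8 CPM in HFHS males of C57BL/6J, and at 4.24–27.4 and 9.07–12.8 CPM in CAST/EiJ, so the diets overlapped in both. The median change of the 21 genes was -0.04 log2 in C57BL/6J and -0.04 in CAST/EiJ males. For the difference of the diet effects, NZO/HlLtJ less C57BL/6J, edgeR called 0 genes of 20053 (0%), limma on the deposited log2 values 0 and DESeq2 3, of which none was a heat shock gene. At an unadjusted p under 0.05 there were 929 genes (4.63%), with 533 lower in NZO/HlLtJ (2.66%). Of the 21 heat shock genes 11 were among the lower ones, with Hspa1b at -2.52 log2 (unadjusted p = 0.0018) and Hsph1 at -0.61 (unadjusted p = 0.0041). Against CAST/EiJ the calls were 0 by edgeR (0%), 0 by limma and 3 by DESeq2. There 1340 genes (6.68%) had an unadjusted p under 0.05, 652 of them lower (3.25%), and these took in 13 of the 21. The strain differences use the same NZO/HlLtJ libraries and are not independent of each other.

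Zfhx2os (chr14:55073091-55075874, plus strand) rose. It is an antisense transcript that lies within Zfhx2, a homeobox factor gene on the opposite strand. Its mean over the 6 males is under the 1 CPM that the rule for named genes asks for, so Zfhx2os was named after its values were seen. It lay at 0 CPM in all 3 control males and at 0.98, 1.96 and 1.59 CPM in HFHS males, which are 33.6, 76.9 and 56.1 estimated counts. Against a floor of 3 counts in each control library, the HFHS mean was at least 17.2-fold higher (adjusted p = 0.0408). In males of C57BL/6J the transcript lay at 0.037–3.65 CPM and in those of CAST/EiJ at 2.07–4.54 CPM, both diets together. Zfhx2os was detected in all NZO/HlLtJ females, at 0.25–1.06 CPM on control diet and 0.43–0.88 CPM on HFHS. Zfhx2 itself was at 156–171 CPM in control males and 145–158 CPM in HFHS males. No source used here states whether counting used strand, so reads of the gene and its antisense partner may not be separate. Zfhx2os passed in 10 of 17 alternatives, and its adjusted p was 0.104 to 0.289 without control male 1, 2 or 3, HFHS male 2 or HFHS male 3.

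The genes next in order of p did not pass. Of the higher ones Mmp2, a matrix-cutting gelatinase, lay at 2.52, 3.51 and 2.87 CPM in control males and 5.60, 4.62 and 5.06 CPM in HFHS males (0.77 ± 0.17 log2, adjusted p = 0.307). Kdr, the VEGF receptor of endothelial cells, lay at 13.1, 16.2 and 14.6 CPM against 27.5, 24.4 and 20.1 CPM (0.71 ± 0.17, adjusted p = 0.323). Both had clear gaps between the diets. The others were Gm10643, Gpr146, Rsrp1, Mir22hg, Whamm, Nkd1, Car14 and Cenpb, whose adjusted p-values ran from 0.307 to 0.403. Of these, Nkd1, an inhibitor of Wnt signalling, differed between the sexes by 0.72 log2 (unadjusted p = 0.00076), since its female difference was -0.20 ± 0.13. The lower ones outside the heat shock list were Zfp68, Uspl1, Ddx52 and Mettl16, at 80.1% to 83.8% of the control level. In females all 4 lay between -0.04 and 0.07 log2, and the difference between the sexes had an unadjusted p of 0.0011 for Ddx52 and 0.0065 for Zfp68.

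Endoplasmic reticulum chaperones formed the next group. Of 20 unfolded protein response genes tested, none was called. At an unadjusted p under 0.05, 8 were lower on HFHS (4.7% of all genes were). For 15, all HFHS males lay under all controls (11.2% of all genes). No member was higher by either count, and the median change was -0.20 log2. Hspa5, the lumenal Hsp70 known as BiP, lay at 533, 582 and 549 CPM in control males and at 421, 431 and 415 CPM in HFHS males (-0.39 ± 0.13, adjusted p = 0.482). Pdia6, a disulfide isomerase, was at 140, 138 and 137 CPM against 109, 110 and 111 CPM (-0.33 ± 0.10, adjusted p = 0.475). Libraries within each diet were close to each other for both genes, control male 3 included. Sdf2l1, a BiP partner, differed by -0.62 ± 0.21 and Hsp90b1, the lumenal Hsp90, by -0.24 ± 0.09. Xbp1, a transcription factor of this response, differed by -0.24 ± 0.12. The stress-induced factors Atf4 (-0.10 ± 0.07), Ddit3 (-0.06 ± 0.11) and Trib3 (0.10 ± 0.39) had unadjusted p-values over 0.05. Leaving out any 1 of the 6 males left 4 to 7 members with an unadjusted p under 0.05. In females 10 members did, all lower (3.24% of all genes), with a median of -0.18. In the fit of the 6 males alone Hspa5, Pdia6, Pdia4, Hsp90b1 and Sdf2l1 passed.

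**Figure D3:**
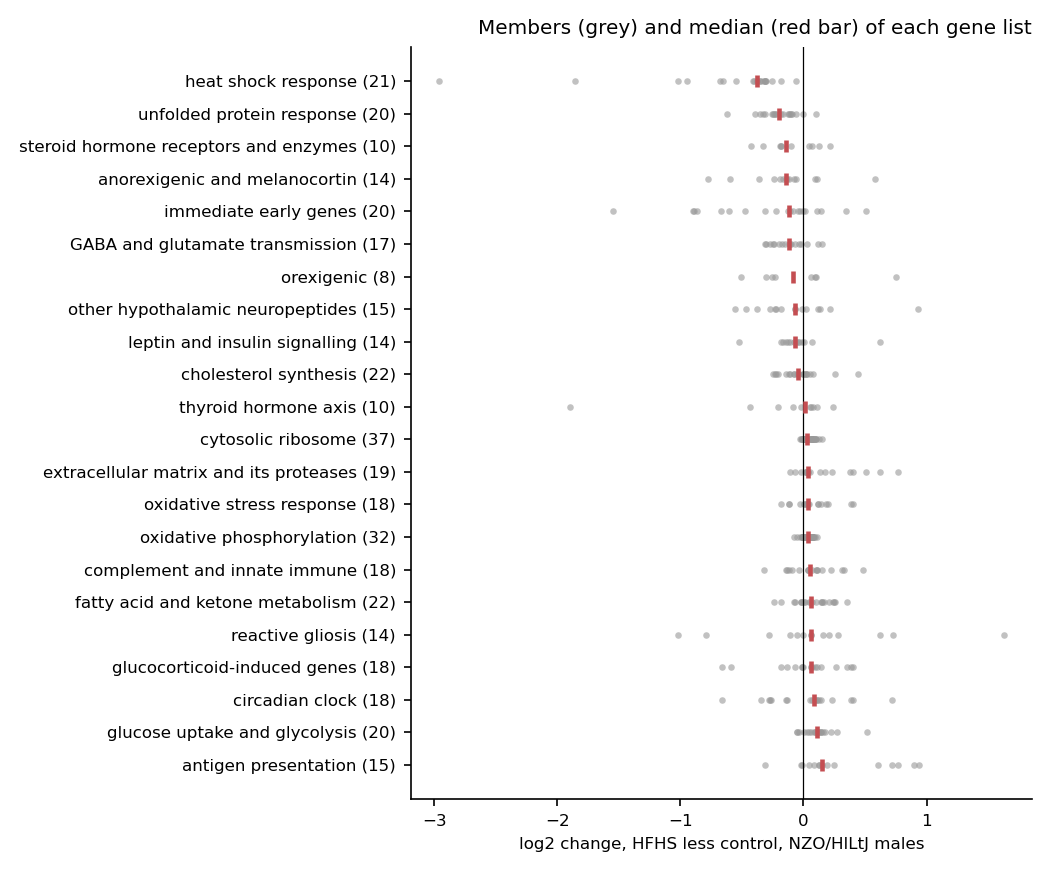
Each grey point is a gene and each red bar the median of its list, on the log2 scale (HFHS less control, NZO/HlLtJ males), with the number of genes tested in brackets. The lowest medians are those of the heat shock (-0.37) and unfolded protein response (-0.20) lists. That of antigen presentation is 0.15. Some marker lists described below, the endothelial and pituitary ones among them, have higher medians.

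Immediate early genes, which neurons switch on briefly when active, split the control males. Of 20 tested, none was called, and the median was -0.12. An unadjusted p under 0.05 was found for 4, all with the lower level on HFHS (4.7% of all genes). Fosb lay at 10.5, 15.2 and 8.18 CPM on control diet and at 3.35, 3.80 and 4.46 CPM on HFHS (-1.54 ± 0.60, adjusted p = 0.553). Fosl2 was at 49.76, 54.96 and 40.06 CPM against 24.4, 24.2 and 29.1 CPM (-0.90 ± 0.40). For Fos itself the values were 30.9, 35.2 and 12.2 CPM against 14.9, 15.1 and 19 CPM, so control male 3 lay under every HFHS library. The mean level of this list was 0.20, 0.40 and -0.22 in control males 1, 2 and 3, and the heat shock list in the same libraries was at 0.37, 0.47 and 0.06. In the HFHS males they were at -0.16 to -0.09 and -0.34 to -0.28. Control male 3 is thus the lowest control for both lists, and the part of these genes in the heat shock result was not tested. Leaving out control male 2 left 0 of the 20 at an unadjusted p under 0.05, and leaving out control male 1, HFHS male 1 or HFHS male 2 left 1. In C57BL/6J males 12 of the 20 were lower at that threshold (1.19% of all genes), with a median of -0.91, while the heat shock list there had a median of -0.04. In NZO/HlLtJ females 7 immediate early genes had an unadjusted p under 0.05, all lower (3.24% of all genes), with a median of -0.40.

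Of 18 glucocorticoid-induced genes tested, 1 had an unadjusted p under 0.05, on the higher side (3.65% of all genes), and none was called. The median was 0.06, and it was -0.02 without control male 3 and -0.06 without HFHS male 3. This was Mt1, which encodes a metallothionein, at 75.3, 80.6 and 82.8 CPM on control diet and 99.5, 113 and 102 CPM on HFHS (0.40 ± 0.16, adjusted p = 0.553). Fkbp5 and Tsc22d3, commonly used readouts of the glucocorticoid receptor, differed by -0.13 ± 0.21 and -0.01 ± 0.24. Cdkn1a, a cell cycle inhibitor gene, lay at 14.63, 18.13 and 14.96 CPM on control diet and 8.98, 10.1 and 11.1 CPM on HFHS, with no overlap (-0.66 ± 0.38, adjusted p = 0.644). Mt1 and Cdkn1a passed in the fit of the 6 males alone, and Cdkn1a also in that of the 12 NZO/HlLtJ libraries. In females 4 of the 18 had an unadjusted p under 0.05, all lower (3.24% of all genes). These were Tsc22d3 (-0.63 ± 0.24), Per1 (-0.38 ± 0.15), Nfkbia (-0.60 ± 0.25) and Klf9 (-0.33 ± 0.16). The female difference of Cdkn1a was -0.72 ± 0.38.

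Clock genes lay on both sides. Of 18 tested, none was called. At an unadjusted p under 0.05, 4 were on the higher side (3.65% of all genes) and 4 on the lower (4.7%). Dbp, an output gene of the clock, was at 29.6, 28.6 and 34.6 CPM in control males and 49.2, 53.4 and 50.2 CPM in HFHS males (0.72 ± 0.31, adjusted p = 0.569). Nr1d1, the repressor REV-ERBα, was at 64.5, 67.9 and 73.9 CPM against 94.2, 94.3 and 84.7 CPM (0.40 ± 0.15). Hlf and Ciart were higher as well (0.23 ± 0.10 and 0.38 ± 0.16). The lower ones were the activators Arntl (-0.28 ± 0.10) and Clock (-0.27 ± 0.12), with Nfil3 (-0.66 ± 0.21) and Rorb (-0.34 ± 0.11). Of the genes named here, only Arntl overlapped between the diets. The sample details used here hold no hour of collection, and its part in these differences was not tested. Dbp and Nr1d1 passed in the fit of the 6 males alone.

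Feeding peptides showed no called gene. Npy, which drives feeding, was at 22.1, 16.5 and 13.3 CPM on control diet and 15.7, 21.6 and 18.2 CPM on HFHS (0.10 ± 0.31). Agrp, its partner in the same arcuate neurons, was at 5.38, 3.36 and 2.97 CPM against 2.77, 4.21 and 2.73 CPM (-0.25 ± 0.39). Pomc, the source of the satiety signal α-MSH, was at 45.5, 42.6 and 31.1 CPM against 39.6, 38.2 and 35.1 CPM (-0.08 ± 0.25). All 3 overlapped between the diets, as did Cartpt (-0.06 ± 0.16). Of the 8 orexigenic genes tested, Pmch and Gal had all HFHS males under the controls (11.2% of all genes did). Pmch, which encodes melanin-concentrating hormone, was at 406, 411 and 443 CPM against 369, 312 and 342 CPM (-0.30 ± 0.21). Of 14 anorexigenic genes Nts (-0.59 ± 0.25) and Sim1 (-0.36 ± 0.16) had an unadjusted p under 0.05 on the lower side (4.7% of all genes). Cck (0.58 ± 0.26) was on the higher side (3.65%). Nts encodes neurotensin, Cck cholecystokinin, and Sim1 a factor of the paraventricular nucleus.

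Leptin and insulin signalling genes were mostly near 0. Lepr, the leptin receptor, differed by 0.07 ± 0.24 and Insr by -0.06 ± 0.09. Socs3, a leptin-induced brake on the receptor, was at 7.52, 7.46 and 8.23 CPM in control males and 5.11, 5.26 and 5.82 CPM in HFHS males (-0.52 ± 0.22, adjusted p = 0.569). The diets did not overlap. In the list 2 of 14 genes, Socs3 and Jak2, had an unadjusted p under 0.05, both lower (4.7% of all genes). In females Socs3 differed by 0.45 ± 0.22 the other way, and the difference between the sexes was -0.97 log2 (unadjusted p = 0.0036).

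Among other peptides Avp had the lowest p. It encodes vasopressin, made by magnocellular and suprachiasmatic neurons, and lay at 140, 102 and 99.2 CPM on control diet and 228, 238 and 185 CPM on HFHS. The difference was 0.93 ± 0.29 log2 (adjusted p = 0.475), and Avp passed in the fit of the 6 males alone. Oxt, the neighbouring gene for oxytocin, was at 104, 60.3 and 71.8 CPM against 68.4, 82.3 and 88.4 CPM (0.02 ± 0.41), with overlap. Tac1, the substance P precursor, was lower (-0.23 ± 0.09) with no overlap, and differed by 0.28 ± 0.09 in females, so that the sexes differed by -0.52 (unadjusted p = 0.00037). Of 15 such peptides tested, 1 was higher (3.65% of all genes) and 1 lower (4.7%) at an unadjusted p under 0.05.

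Esr1, the estrogen receptor α gene, was the single member of the 10 steroid receptor and enzyme genes with an unadjusted p under 0.05. It lay at 25.1, 24 and 26.9 CPM on control diet and at 18.82, 19.29 and 18.35 CPM on HFHS (-0.43 ± 0.19, adjusted p = 0.572). Of 17 genes of GABA and glutamate transmission, 3 were on the lower side at that threshold (4.7% of all genes) and none on the higher. Gad2 and Gad1 encode the enzymes that make GABA. Gad2 lay at 474, 496 and 535 CPM against 412, 393 and 411 CPM (-0.31 ± 0.11) and Gad1 at 362, 364 and 376 CPM against 309, 311 and 309 CPM (-0.25 ± 0.10). The vesicular GABA transporter gene Slc32a1 differed by -0.12 ± 0.10. Without control male 3 none of the 17 had an unadjusted p under 0.05. Esr1, Gad1 and Gad2 passed in the fit of the 6 males alone.

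Serpina3n, a marker of reactive astrocytes, was the 1 gene of 20053 (0.00499%) whose diet effect differed between the sexes of NZO/HlLtJ at an adjusted p under 0.05. In males it lay at 85.8, 121 and 105 CPM on control diet and 95.4, 90.2 and 115 CPM on HFHS, with overlap (-0.06 ± 0.15). In females it stood at 57.9–79.4 CPM on control diet and 146–191 CPM on HFHS (1.38 ± 0.15). The male change less the female change was -1.43 ± 0.21 log2 (adjusted p = 0.0043). Other glial and complement genes had the same order at unadjusted p only: C4b (difference -0.69, unadjusted p = 0.00068), C3 (-1.18, unadjusted p = 0.017), Cd44 (-0.76, unadjusted p = 0.027) and Gfap (-0.86, unadjusted p = 0.022). Gfap, the astrocyte filament gene, was at 575, 940 and 740 CPM in control males and 779, 760 and 810 CPM in HFHS males (0.06 ± 0.25). The difference of Serpina3n did not pass when only the 12 NZO/HlLtJ libraries were fitted, where edgeR called 0 genes and 1641 had an unadjusted p under 0.05.

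**Figure D4:**
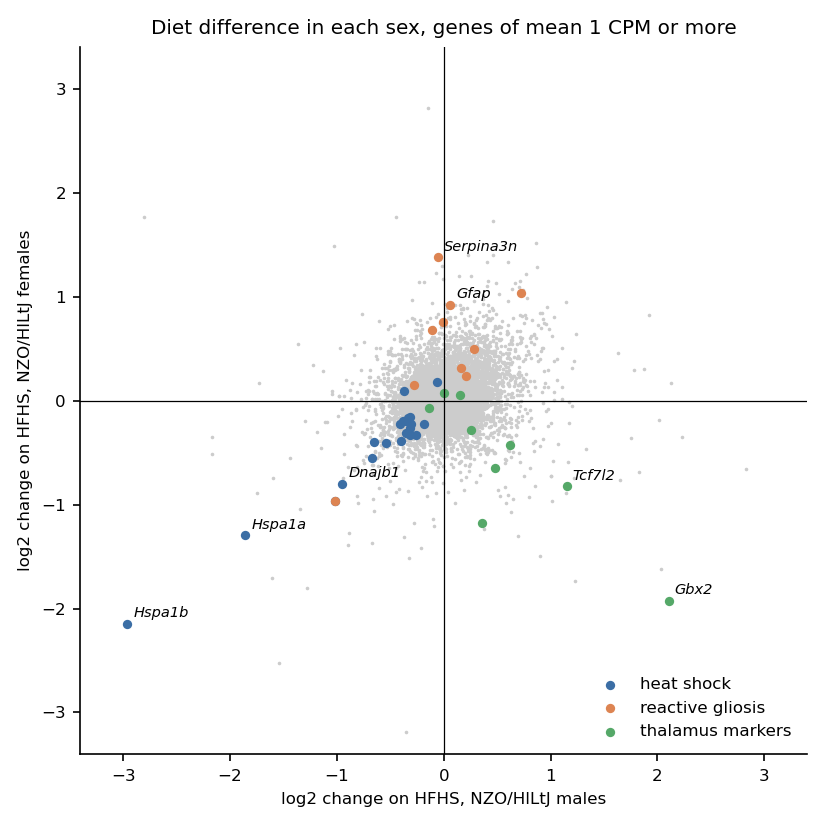
Each point is a gene with a mean of at least 1 CPM in either male group (15624 genes, 11 of them outside the axes). The x axis is its log2 change on HFHS in NZO/HlLtJ males and the y axis that in females. Heat shock genes lie low in both sexes, Serpina3n and Gfap near 0 in males and high in females, and the thalamus markers Tcf7l2 and Gbx2 high in males and low in females. Hspb1, in both lists, is drawn with the gliosis genes.

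In males alone, 0 of 18 complement and innate immune genes had an unadjusted p under 0.05. Of 14 gliosis genes Ptx3 was higher and Hspb1 lower at that threshold. Antigen presentation was on the higher side, with 3 of 15 genes at an unadjusted p under 0.05 and 4 without overlap. Of all genes, 3.65% were higher at that threshold and 10.9% had all HFHS males above all controls. Tap1, the peptide transporter that loads class I molecules, lay at 3.01, 5.32 and 6.10 CPM on control diet and 8.05, 7.53 and 6.53 CPM on HFHS (0.60 ± 0.19, adjusted p = 0.475). H2-Eb1, a class II chain, lay at 1.24, 3.84 and 3.73 CPM against 5.51, 6.23 and 5.48 CPM (0.94 ± 0.42). Control male 1 was the lowest for both, and without it, or without HFHS male 2, 1 of the 15 genes had an unadjusted p under 0.05. In females 7 of 15 did, all higher (4.01% of all genes).

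Vessel markers were on the higher side, with no gene called, and depended on single libraries. All 14 endothelial genes had changes above 0, with a median of 0.21. Of them 3 had an unadjusted p under 0.05 (3.65% of all genes were higher at that threshold). Besides Kdr these were Tek (0.33 ± 0.15), the angiopoietin receptor, and Cdh5 (0.38 ± 0.18), a junction cadherin. Without control male 1 the count was 1 and the median 0.17, and the count was also 1 without HFHS male 1 or HFHS male 2. Of 16 pericyte, vascular muscle and fibroblast markers 3 had an unadjusted p under 0.05: Pdgfrb (0.40 ± 0.17), Vtn (0.64 ± 0.28) and Abcc9 (0.42 ± 0.20). Vtn, which pericytes secrete, lay at 28.5, 49.4 and 40.2 CPM on control diet and 64.4, 64.0 and 55.8 CPM on HFHS. The summed level of the 16 markers was 254 CPM in control male 1, 498 and 422 CPM in the other controls and 474–565 CPM in HFHS males, and the count was 0 without control male 1 and 0 without HFHS male 1. Among the controls Mmp2 and Kdr had the same order as this sum, lowest in control male 1 and highest in control male 2. The sum of control male 2 lay within the range of the HFHS males, while its Mmp2 and Kdr lay under all of them. The part of these markers in the differences of Mmp2 and Kdr was not tested. The summed endothelial level was 410, 477 and 488 CPM against 516–552 CPM.

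**Figure D5:**
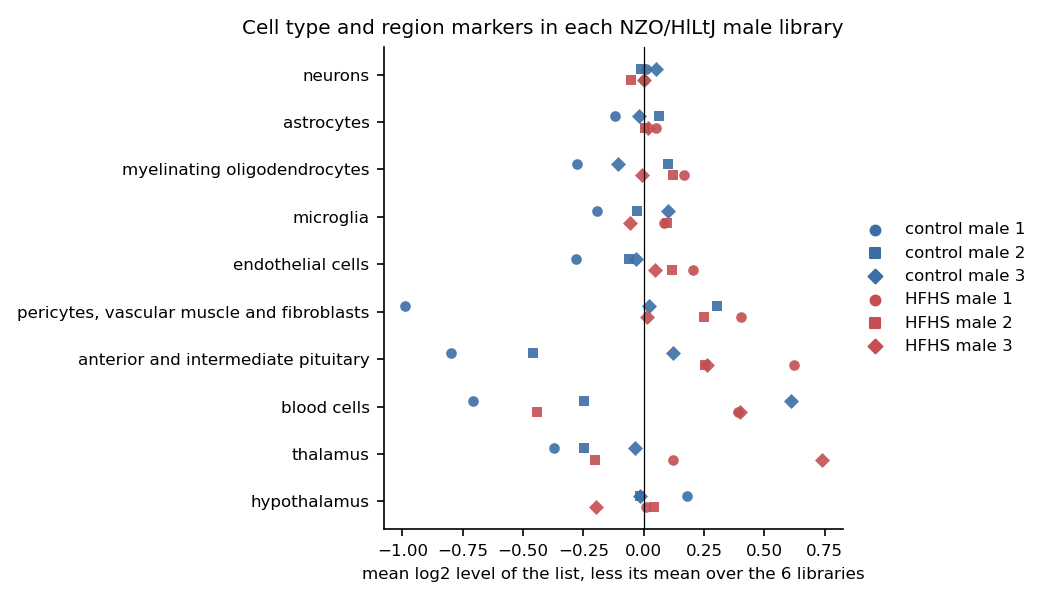
Mean log2 level of each marker list in each NZO/HlLtJ male library, less its mean over the 6 libraries. Control male 1 (blue circles) is lowest for pericytes, vascular muscle and fibroblasts at -0.99, and HFHS male 3 (red diamonds) is highest for thalamus at 0.74.

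Neuron and glia marker lists differed little. Of 10 neuronal markers none had an unadjusted p under 0.05, and their summed level was 4199–4345 CPM in control and 4092–4298 CPM in HFHS males. The same held for astrocytes (0 of 10), oligodendrocyte precursors (0 of 10), microglia (0 of 12), ependymal cells (0 of 9), tanycytes (0 of 10), choroid plexus (0 of 10) and blood (0 of 9), and 1 of 12 myelin genes was higher. Pituitary markers had a median of 0.60 with 0 of 10 at that threshold. Of their hormone genes Prl and Gh lay under 1 CPM in all 6 males. Cga lay at 5.79–16.0 CPM and Tshb at 2.54–3.81 CPM, both with overlap between the diets. Prl was at 0 in control males 1 and 2, and Gh in control male 1.

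Markers of neighbouring regions varied between libraries. Of 9 thalamus markers 4 were higher at an unadjusted p under 0.05 (3.65% of all genes were). The mean level of the 9 was 0.74 in HFHS male 3 where the other males lay between -0.37 and 0.12. Tcf7l2, a thalamic transcription factor, lay at 11.96, 10.69 and 14.43 CPM on control diet and at 23.3, 17.9 and 41.2 CPM on HFHS. Gbx2, another, was at 5.17 CPM in HFHS male 3 and under 1 CPM in the other males. Without HFHS male 3 the count was 0 of 9, and without control male 1, 2 or 3 it was 2, 1 and 2. The difference between the sexes was 1.98 log2 for Tcf7l2 (unadjusted p = 0.0061), with a female difference of -0.83 ± 0.47. The heat shock list was at -0.34 in HFHS male 3 and at -0.28 and -0.28 in the other HFHS males. Its median change without HFHS male 3 was -0.36. The part of neighbouring tissue in the heat shock result was not tested. Of the 16 hypothalamic markers 1 was higher and 2 were lower at an unadjusted p under 0.05 (4.7% of all genes were lower). Of cortex and hippocampus markers 1 of 8 was lower, and of striatum markers 0 of 9. Slc17a7 and Tbr1, with an unadjusted p over 0.05, had no overlap and opposite directions. Slc17a7 lay at 0.26, 0.75 and 0.81 CPM on control diet and 1.62, 1.96 and 5.42 CPM on HFHS. Tbr1 lay at 1.92, 3.31 and 4.06 CPM against 1.53, 0.87 and 1.48 CPM.

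Metabolic genes differed by small amounts, with none called. Of 20 genes of glucose uptake and glycolysis 10 had all HFHS males above the controls (10.9% of all genes did), though 2, Ldha (0.16 ± 0.07) and Hk2 (0.27 ± 0.13), had an unadjusted p under 0.05. Ldha makes lactate from pyruvate, and lay at 139, 147 and 138 CPM on control diet and 160, 166 and 147 CPM on HFHS. In sterol synthesis 3 of 22 genes were on the lower side at that threshold, Sc5d (-0.25 ± 0.08), Cyp51 (-0.23 ± 0.08) and Msmo1 (-0.21 ± 0.10). Mvk (0.25 ± 0.11) was on the higher side. Over all genes 4.7% were lower and 3.65% higher at that threshold. In fatty acid metabolism Cpt1a, which admits fatty acids to mitochondria, was higher (0.21 ± 0.09) and Elovl6, a chain-lengthening enzyme, lower (-0.24 ± 0.08). None of 32 oxidative phosphorylation genes, of 37 cytosolic ribosomal protein genes or of 10 thyroid hormone genes had an unadjusted p under 0.05, and the changes of the ribosomal genes lay between -0.03 and 0.15. In the oxidative stress list Mt1 and Cat were higher and Txnrd1 lower. Of the 19 matrix genes Mmp2 was the 1 with an unadjusted p under 0.05.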

How the data were processed

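Hypothalamus RNA was sequenced in 36 libraries as polyA-selected paired reads, per the labels' protocols. The authors deposited gene-level expected counts (estimated counts that need not be whole) and variance-stabilised log2 values made with DESeq2 on GRCm38, per the submitters' processing notes. No source used here names the aligner, the counter, the annotation version or the strand setting. Of the deposited expected counts 21.4% were not whole (tolerance 1e-06), and they were rounded to whole numbers first. edgeR 4.0.16 (R 4.3.3) with TMM scaling and its filter on low counts kept 20053 genes. A quasi-likelihood model of 12 group means over 36 libraries gave the diet change in NZO/HlLtJ males, in females, and the differences between sexes and strains, with Benjamini-Hochberg adjustment over all genes tested and a threshold of 0.05. The script was tested on simulated data. CPM are TMM-scaled, list levels are log2 CPM with a prior count of 2, less the mean over the 6 males. The rule for named genes was limited to genes averaging 1 CPM or more, and took those past the threshold, then the next by p up to 10 in each direction, the 4 members of lowest p in each list, and a few defining members. List members named beyond that were chosen after their values were seen. The gene lists and members were chosen with earlier results of these data known, so lists are given as counts and medians without a test. Alternatives used DESeq2 1.42.0, limma 3.58.1 on the deposited log2 values and sva 3.50.0. Spike-ins were not analysed here. Male libraries held 26.4 to 39.6 M counts, which sets the counting error, and floors cover counting error only.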

Additional observations from a re-analysis of the deposited data

Results flagged for a closer look

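The response of Serpina3n to diet differed between the sexes of NZO/HlLtJ by -1.43 log2 (male change less female change), by the test of the difference itself over all genes. The male change was -0.06 ± 0.15 and the female change 1.38 ± 0.15 (SE, n = 3 per diet and sex, edgeR). The control levels also differed, at 85.8–121 CPM in males and 57.9–79.4 CPM in females.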

How the results depend on the processing

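For the male diet change, edgeR called 3 genes. The count was 0 with limma on the deposited log2 values (1735 at an unadjusted p under 0.05), 0 with robust dispersion (1632), 1 with 2 surrogate variables, 12 with only the 12 NZO/HlLtJ libraries and 63 with only the 6 males. Leaving out 1 male gave 0 to 5 calls. It stayed at 3 with median-ratio size factors, with no filter, with a stricter filter, without CAST/EiJ control female 1 and without genes above 1% of counts, and was 4 with DESeq2. For the diet by sex difference the count was 1, and was 4 with DESeq2, 0 with only the 12 NZO/HlLtJ libraries and 1 to 2 with 1 library left out. For NZO/HlLtJ less C57BL/6J it was 0, and 3 with DESeq2 and 0 to 1 with 1 library left out. For NZO/HlLtJ less CAST/EiJ it was 0, and 3 with DESeq2, 5 with only the libraries compared, 1 with 2 surrogate variables and 0 to 1 with 1 library left out. The cause of these differences was not tested. The 12 NZO/HlLtJ libraries alone give no value for the strain differences. Over named genes, 27 alternatives moved a gene past the threshold, 23 moved one out and 2872 left it on its side, and no called gene changed direction. Leave-one-out and smaller-fit counts over gene lists were added after seeing the data. No paired analysis was possible because the labels give no replicate numbers. Depth sets the floor of 3 counts against which Zfhx2os is given.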
